A study of Schizosaccharomyces pombe with 4 samples.

Results

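The RNA levels of 10 heat shock protein and chaperone genes of the fission yeast Schizosaccharomyces pombe were compared between a wild type and an eif3e deletion strain. The genes were taken by identifier from the 6807 in the deposited table. Of these, 7 encode proteins of the cytosol (hsp104, hsp90, ssa1, ssa2, sks2, mas5 and hsp16), 1 encodes a mitochondrial protein (hsp60, named mcp60 in RefSeq) and 2 encode proteins of the endoplasmic reticulum, or ER (bip1 and pdi1). The wild type was of mating type h- with the alleles ura4-D18 and leu1-32, and the deletion strain carried int6::kanMX6 in addition, which disrupts int6, which encodes eIF3e, a subunit of the translation initiation factor eIF3, with a drug resistance cassette. Both strains were grown in YES, a rich yeast extract medium with adenine and uracil, to an OD of 0.8 to 1.0, with no heat shock mentioned, and rRNA-depleted total RNA was sequenced from 2 libraries of each.

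Chaperones bind unfolded or partly folded proteins and help them fold, move between compartments or leave aggregates. Hsp70 proteins do so in cycles of ATP hydrolysis, started by J-domain partners, and Hsp90 takes over clients at a later step, while chaperonins enclose a protein in a barrel. In yeasts the heat shock factor Hsf1 binds repeats of GAA and TTC, the heat shock element, in front of many of these genes, and it also drives some of them in unstressed cells. Folding in mitochondria and the ER relies on separate sets of chaperones, and the ER set is in addition known to answer to unfolded protein in that compartment.

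Summed over all features, libraries held between 9926548 and 28254322 estimated reads. Of these, residual nuclear rRNA took 47.6% and 56.6% in wild-type replicates 1 and 2 and 51.9% and 64.1% in deletion replicates 1 and 2. The 10 chaperone genes took between 0.0501% and 0.0654% of the reads so summed, and single members held from 33 to 6270 reads. The disrupted gene int6 held 504 and 194 reads in wild type, and the deletion libraries had 1 and 10. Over all features in log2 CPM, deletion replicate 2 was as close to the wild-type libraries (Pearson's r of 0.940 and 0.942) as to deletion replicate 1 (0.935), a description across features. The labels name the replicates but not whether they were separate cultures. The p-values below for the strain difference therefore rest on the spread between these libraries, which may be technical.

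Upstream sequence of cytosolic chaperone genes is shown first, since hsp90, ssa1 and ssa2 share letters there that the other members lack. In the 300 bases upstream of RefSeq's gene start (assembly ASM294v3), the 3-unit heat shock element GAANNTTCNNGAA was searched on both strands. It was found in front of 2 of the 10 members, ssa1 and ssa2, and in 25 of 5112 protein-coding genes (0.489%). A 2-unit form, GAANNTTC or TTCNNGAA, is contained in every 3-unit match and was found in front of 7 members (hsp90, ssa1, ssa2, mas5, hsp16, hsp60 and bip1), against 19.5% of the 5112 genes. For mas5 the deposited transcript starts 453 bases upstream of RefSeq's gene start, so its element lies inside that transcript. It was not found in these windows for hsp104, sks2 and pdi1. The 4 windows below run 5′ to 3′ on the gene's strand, with the element in capitals.
ssa1: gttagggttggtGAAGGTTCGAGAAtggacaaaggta
ssa2: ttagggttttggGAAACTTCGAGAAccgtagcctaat
hsp90: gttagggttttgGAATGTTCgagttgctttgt
hsp16: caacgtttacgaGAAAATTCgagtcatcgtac

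These lie at chr1:2297998-2298034 on the minus strand for ssa1, chr3:2056972-2057008 on the plus strand for ssa2, chr1:3891177-3891208 on the minus strand for hsp90 and chr2:2661066-2661097 on the minus strand for hsp16. The element began 58, 59 and 57 bases before RefSeq's gene start of ssa1, ssa2 and hsp90, and 93 bases before that of hsp16. Among the elements not shown, those of hsp60 began 59 and 149 bases before its gene start and that of bip1 76 bases before. The deposited transcripts of ssa1 and hsp90 start 17 and 18 bases upstream of RefSeq's gene start, and that of ssa2 starts downstream of it (−41). In front of ssa1, ssa2 and hsp90 the same letters, TTAGGGTT, stood ahead of the element with 3, 4 and 3 bases between. TTAGGGTT by itself occurred on either strand in 62 of the 5112 windows (1.21%). Followed within 6 bases by GAANNTTC it occurred in 3 of them (0.0587%), namely these 3 genes. The letters were picked after these windows had been seen, so this share is a description and not a test.

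Between strains, none of the 10 chaperone genes passed the test. edgeR's quasi-likelihood test called 0 of 10 at a Benjamini-Hochberg adjusted p under 0.05, where it called 0.0169% of the 5915 features tested (1 higher and 0 lower). At an unadjusted p under 0.05 it also gave 0 members, against 4.8% of all features higher and 5.31% lower. DESeq2's Wald test and limma-voom likewise called 0 members, while DESeq2 called 49 features higher and 41 lower and limma on log2(RPKM + 1) called 11 higher and 35 lower. All 10 members passed the filter on low counts. In RNA of a whole culture, fewer expressing cells and less RNA per cell cannot be told apart. Their log2 changes, deletion minus wild type, ran from −0.46 for hsp16 to 0.66 for hsp104 with a median of −0.02, and the median over all features was 0.001. Levels below are in CPM, reads scaled to library size after TMM normalization, and values per transcript length are the authors' RPKM.

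**Figure D1:**
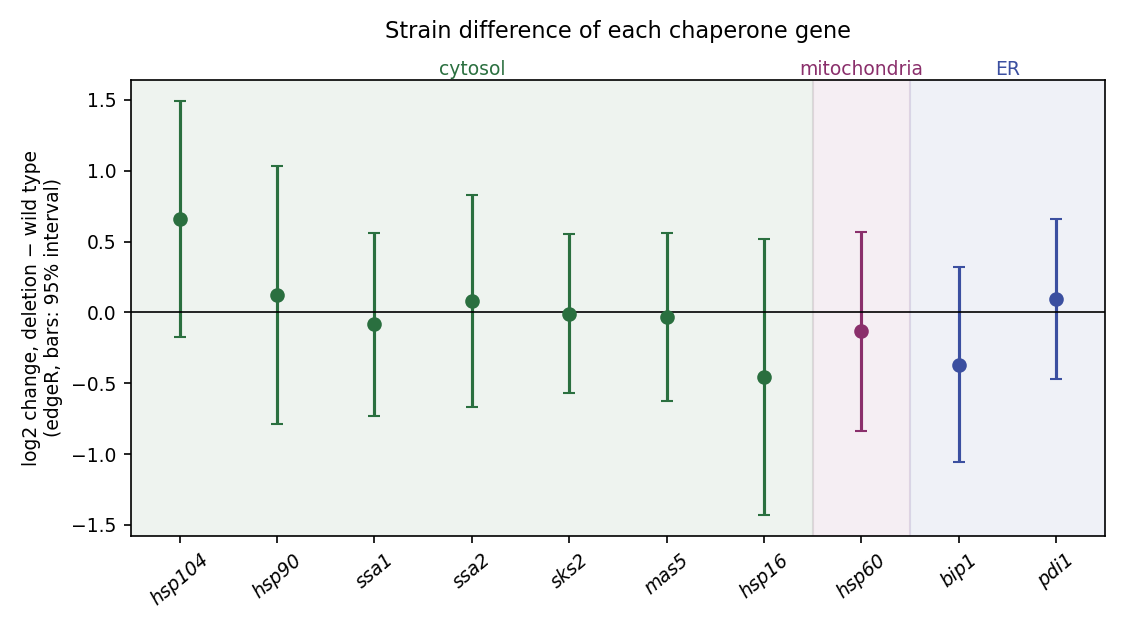
Log2 change in RNA level (deletion minus wild type, vertical axis, edgeR) for each of the 10 chaperone genes, ordered by compartment. Points are estimates from 2 libraries per strain and bars are 95% intervals, each of which spans 0, from hsp104 at 0.66 to hsp16 at −0.46.

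hsp104 (SPBC16D10.08c, chromosome 2, positions 3612265 to 3615320, minus strand) encodes the disaggregase that pulls proteins out of aggregates. Its level was 6.57 and 11.6 CPM in wild-type replicates 1 and 2, against 15.6 and 12.6 CPM in deletion replicates 1 and 2. Both deletion values exceeded both wild-type values, an order that 20.1% of all features also show. The lowest value, wild-type replicate 1, stood well apart from the other 3, and the gap between wild-type replicate 2 and deletion replicate 2 was small. The log2 change was 0.66 (standard error 0.35), with a 95% interval of −0.17 to 1.49 and an edgeR adjusted p of 0.585. The difference stood at 0.29 without wild-type replicate 1 and at 1.11 without wild-type replicate 2. Its read counts were 152 and 98 in wild type against 546 and 150 in the deletion.

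hsp90 (SPAC926.04c, chromosome 1, positions 3888558 to 3891157, minus strand) encodes the chaperone of kinases and other signalling proteins. It was measured at 149.8 and 270.6 CPM in wild type against 178.7 and 278.1 CPM in the deletion, for replicates 1 and 2 in each case. The strains overlapped, and replicate 2 was the higher library in both. The log2 change was 0.12 with a 95% interval of −0.79 to 1.03 and an edgeR adjusted p of 0.942. It was −0.25 without wild-type replicate 1 and 0.61 without wild-type replicate 2, so its sign depended on which library was left out.

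The genes of the cytosolic Hsp70 proteins had log2 changes within 0.1 of 0. ssa2 (SPCC1739.13, chromosome 3, positions 2057084 to 2059331, plus strand) encodes the abundant Hsp70 of the Ssa type and held 115.1 and 165.1 CPM in wild type against 121.0 and 174.6 CPM in the deletion. As with hsp90, each replicate 2 lay above each replicate 1. Its log2 change was 0.08 with a 95% interval of −0.67 to 0.83 and an edgeR adjusted p of 0.951. ssa1 (SPAC13G7.02c, chromosome 1, positions 2295580 to 2297981, minus strand), its paralogue, held 11.9 and 11.7 CPM in wild type against 11.9 and 10.3 CPM in the deletion. These 4 values overlap, and the log2 change was −0.08 with a 95% interval of −0.73 to 0.56 and an edgeR adjusted p of 0.943. ssa1 overlaps 162 bases of a non-coding RNA on the opposite strand, and whether reads were counted by strand is not stated.

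The coding sequences of ssa1 and ssa2 were identical at 1605 of 1935 aligned bases (82.95%). Whether reads of either gene were counted for the other was not tested. Their longest identical stretch, 56 bases at coding positions 1324 to 1379 of each, is printed in capitals with 15 bases on either side, from chr1:2296360-2296445 on the minus strand and chr3:2058551-2058636 on the plus strand of ASM294v3.
ssa1: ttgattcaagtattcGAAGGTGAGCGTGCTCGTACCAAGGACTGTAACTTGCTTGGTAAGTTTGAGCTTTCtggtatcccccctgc
ssa2: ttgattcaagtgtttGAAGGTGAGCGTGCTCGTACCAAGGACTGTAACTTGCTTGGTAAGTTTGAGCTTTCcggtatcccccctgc
The deposited reads of wild-type replicate 1 were fractional for these genes, 275.088 for ssa1 and 2660.91 for ssa2, and added up to 2936. In the other 3 libraries both genes held whole numbers. Within each library ssa2 exceeded ssa1 per transcript length. The ratio was 10.3 and 15.1 in wild-type replicates 1 and 2 and 10.8 and 18.2 in deletion replicates 1 and 2. It was higher in replicate 2 of both strains. Both genes have the 3-unit element at nearly the same distance from RefSeq's gene start. Their deposited transcripts start on opposite sides of that start, 17 bases upstream for ssa1 and downstream (−41) for ssa2.

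sks2 (SPBC1709.05, chromosome 2, positions 1106347 to 1108511, plus strand) encodes the Hsp70 that works at the ribosome on emerging chains. It held 57.6 and 66.4 CPM in wild type against 62.2 and 60.8 CPM in the deletion, with both deletion libraries between the wild-type ones. The log2 change was −0.01 with a 95% interval of −0.57 to 0.55 and an edgeR adjusted p of 0.992. mas5 (SPBC1734.11, chromosome 2, positions 1080922 to 1083347, plus strand) encodes a J-domain partner of Hsp70. It varied least of all members, at 15.3 and 15.4 CPM in wild type against 14.9 and 15.1 CPM in the deletion. Both deletion libraries lay below both wild-type libraries, as for 21.4% of all features, but the log2 change was −0.04 with a 95% interval of −0.63 to 0.56 (edgeR adjusted p = 0.976). Its smallest count, 131 reads, has an exact 95% Poisson interval of 110 to 155 reads, which covers counting error only and is wider than the differences between the libraries. mas5 overlaps opposite-strand features over 421 and 32 bases.

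hsp16 (SPBC3E7.02c, chromosome 2, positions 2660139 to 2660992, minus strand) encodes a small heat shock protein, of a class that holds unfolded proteins without ATP. It had the fewest reads of the 10 members in each of the 4 libraries, with 134 and 36 in wild type against 158 and 33 in the deletion. These counts correspond to 5.80 and 4.24 CPM in wild type against 4.50 and 2.78 CPM in the deletion. The strains overlapped, with deletion replicate 1 between the wild-type values and deletion replicate 2 lowest. The log2 change was −0.46 with a 95% interval of −1.43 to 0.52 and an edgeR adjusted p of 0.767, and it ran from −0.87 to −0.17 as libraries were left out in turn. The 33 reads of deletion replicate 2 have an exact 95% Poisson interval of 22.7 to 46.3 reads. In RPKM hsp16 was among the low members of the group, at 8.22 and 3.96 in wild type and 5.96 and 2.18 in the deletion.

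The mitochondrial chaperonin gene hsp60 (SPAC12G12.04, chromosome 1, positions 339766 to 342080, minus strand) encodes the barrel in which imported proteins fold. It held 37.6 and 46.9 CPM in wild type against 30.2 and 47.0 CPM in the deletion. Deletion replicate 1 was lowest and deletion replicate 2 matched wild-type replicate 2, so the strains overlapped. The log2 change was −0.13 with a 95% interval of −0.84 to 0.57 and an edgeR adjusted p of 0.919.

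Among the ER members, bip1 (SPAC22A12.15c, chromosome 1, positions 1182693 to 1185497, minus strand) encodes the Hsp70 of the ER lumen. It held 73.8 and 95.7 CPM in wild type against 53.3 and 77.9 CPM in the deletion. In each strain replicate 2 was higher, and deletion replicate 2 lay above wild-type replicate 1, so the groups overlapped. The log2 change was −0.37 with a 95% interval of −1.06 to 0.32 and an edgeR adjusted p of 0.733, and it was negative with any 1 library left out, from −0.66 to −0.12. pdi1 (SPAC1F5.02, chromosome 1, positions 291979 to 293771, minus strand) encodes a protein disulfide isomerase, which forms and exchanges disulfide bonds. It held 21.2 and 25.5 CPM in wild type against 25.1 and 24.6 CPM in the deletion. Both deletion values lay between the wild-type ones, with a log2 change of 0.09, a 95% interval of −0.47 to 0.66 and an edgeR adjusted p of 0.929.

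Each member is annotated by RefSeq with a single exon, and 0 members had a junction RPKM or an incompatible RPKM above 0 in any library. The authors' deposited table gave the members chi-square values from 43.6 to 225 and p-values up to 1.79e-09. For 8 of the 9 members with a nonzero deposited p, that p matched, to within 1%, a chi-square with 3 degrees of freedom. That is the number for differences among 4 libraries, replicates included, so these p-values do not compare the strains.

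Per transcript length, the order of the members was led by the same genes in every library. hsp90 was first, with RPKM of 69.8 and 83.0 in wild type and 77.7 and 71.8 in the deletion, and ssa2 was next, with 62.0 and 58.6 in wild type and 60.8 and 52.1 in the deletion. The ranges of these genes over the 4 libraries overlapped neither each other nor that of any other member. sks2 followed, with a mean of 27.0 over the libraries, then bip1 with 24.8, hsp60 with 16.1 and pdi1 with 12.7, and neighbours among these 4 overlapped in range. A clear gap separated pdi1, whose lowest library was at 9.20, from mas5, whose highest was at 7.63. mas5, hsp16, ssa1 and hsp104 had means of 5.95, 5.08, 4.59 and 3.54, and neighbours in this order overlapped in range. The median nuclear protein-coding feature had RPKM of 4.70 and 3.01 in wild type and 4.61 and 2.58 in the deletion. Mean RPKM of hsp104 exceeded that of 48.4% of nuclear protein-coding features, and that of hsp90 exceeded 96.1%.

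**Figure D2:**
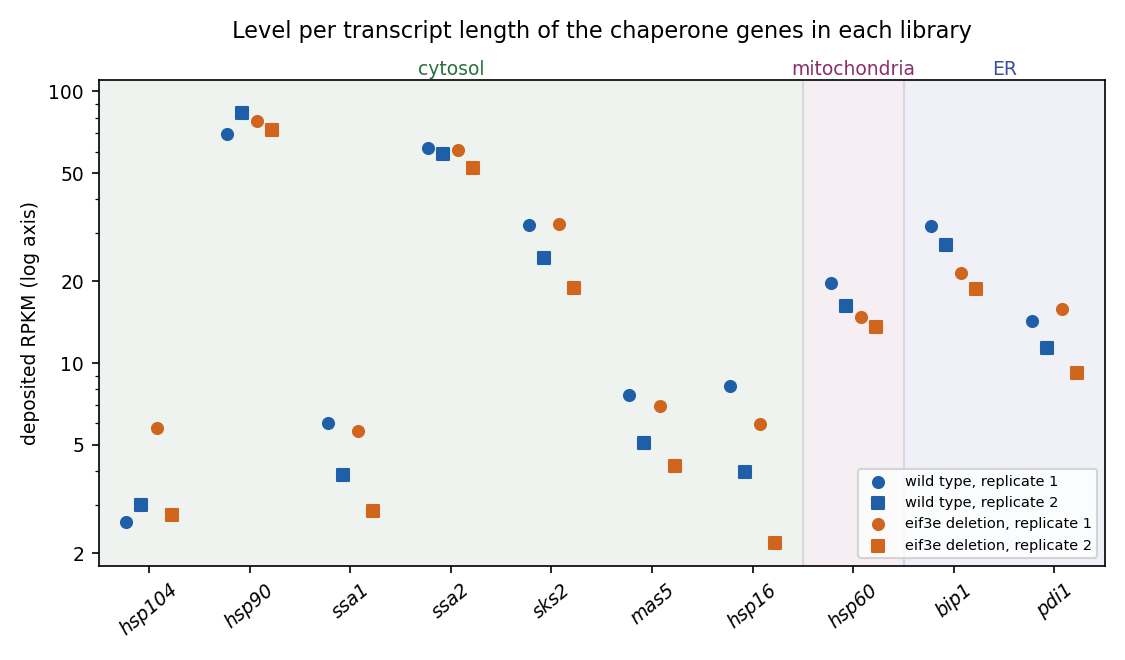
RPKM deposited by the authors (log axis) of each chaperone gene in each of the 4 libraries, with genes grouped by compartment. Blue marks wild type and orange the eif3e deletion, circles replicate 1 and squares replicate 2. hsp90 and ssa2 lie above 50 in every library, and hsp104, ssa1, mas5 and hsp16 below 10.

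Between compartments, the cytosolic genes took most of the signal in every library. The mitochondrial gene and the ER pair had lower means in the deletion on both scales, but the strains overlapped in CPM and not in RPKM. Summed over the 7 cytosolic members the level was 362 and 545 CPM in wild type against 409 and 554 CPM in the deletion, a log2 ratio of the means of 0.09. hsp60, the mitochondrial member, had a log2 ratio of means of −0.13. The ER pair summed to 94.99 and 121 CPM in wild type against 78.4 and 102.5 CPM in the deletion, a log2 ratio of −0.26. In none of the compartments did the strains separate in CPM, and each log2 ratio was smaller than the pooled SD between replicates, which was 0.37 for the cytosol, 0.36 for the mitochondrial gene and 0.26 for the ER on the log2 scale. Replicate 2 was higher than replicate 1 throughout, and between libraries of the same replicate number the ER sum was lower in the deletion both times. The RPKM scale divides by all reads of a library, rRNA included. In limma on log2(RPKM + 1) the median change of all features was −0.12. Adding 1 shrinks changes at low levels, so that median is not on the same scale as the ratios of summed RPKM below. There bip1 stood at 31.9 and 27.2 in wild type and 21.5 and 18.7 in the deletion, and hsp60 at 19.7 and 16.2 against 14.7 and 13.6, so that for both genes the deletion values lay below the wild-type values. limma on log2(RPKM + 1) gave log2 changes of −0.54 for bip1 and −0.31 for hsp60 and an adjusted p of 0.9995 for each. The summed RPKM of the ER pair was 46.2 and 38.5 in wild type against 37.3 and 27.9 in the deletion, a log2 ratio of −0.38 with a pooled SD of 0.25. For the mitochondrial gene the ratio was −0.34 with a pooled SD of 0.15, and for the cytosolic sum it was −0.08 with a pooled SD of 0.17. In RPKM the ER and mitochondrial values thus did not overlap between strains, while the cytosolic ones did. The share of all features with both deletion values below the wild type was not counted on this scale. In CPM it was 21.4%, so the lack of overlap is a description and not a result about these compartments.

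As a share of the summed RPKM of the 10 genes within a library, which does not depend on library scaling, the ER pair took 18.2% and 16.3% in wild type and 15.1% and 14.2% in the deletion. The cytosolic members took 74.1% and 76.9% in wild type and 79.0% and 78.9% in the deletion. hsp60 took 7.74% and 6.83% in wild type and 5.96% and 6.94% in the deletion. ER shares in the deletion thus lay below both wild-type values and cytosolic shares above them, while the mitochondrial shares overlapped. The shares of a library add up to the whole, so these orders are not independent. For single features in CPM, 41.5% did not overlap between the strains. Of the ER pair, only bip1 was lower in RPKM in both deletion libraries. The strains overlapped for pdi1, at 14.3 and 11.3 in wild type and 15.8 and 9.20 in the deletion. In CPM the 10 other ER genes had a median log2 change of 0.11, with 6 positive and 4 negative. Of the cytosolic signal, hsp90 and ssa2 made up most, with 51.8% and 59.8% of the whole group's RPKM in wild type and 56.0% and 63.2% in the deletion. These shares were not tested: members of a compartment are not replicates, and with 2 libraries per strain the smallest two-sided exact permutation p is 0.33. Within the ER, the RPKM of bip1 was 2.23 and 2.40 times that of pdi1 in wild type and 1.36 and 2.03 times in the deletion.

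For several members, as for many other features, the replicates of a strain differed by more than the strain change. A difference between single libraries varies more than a difference between strain means, so this comparison favours the replicates. In CPM, replicate 2 exceeded replicate 1 by 0.85 and 0.64 on the log2 scale for hsp90 in wild type and deletion, by 0.52 and 0.53 for ssa2, by 0.37 and 0.55 for bip1 and by 0.32 and 0.64 for hsp60. hsp16 went the other way, at −0.45 and −0.70. hsp104 stood at 0.81 in wild type and −0.30 in the deletion. For 9 of the 10 members the difference between replicates was larger than the strain change in at least 1 strain, and for 5 in both, where 71.5% and 37.7% of 5791 features with reads in every library did so. The median difference of the 10 members was 0.29 in wild type and −0.01 in the deletion, and over 4745 nuclear protein-coding features it was −0.02 in both strains. sti1, which couples Hsp70 to Hsp90 and was picked after its values were seen, had a similar pattern, with 32.6 and 73.0 CPM in wild type against 32.9 and 70.1 CPM in the deletion. The share of nuclear rRNA was also higher in replicate 2 of each strain, and its part in these differences was not tested.

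**Figure D3:**
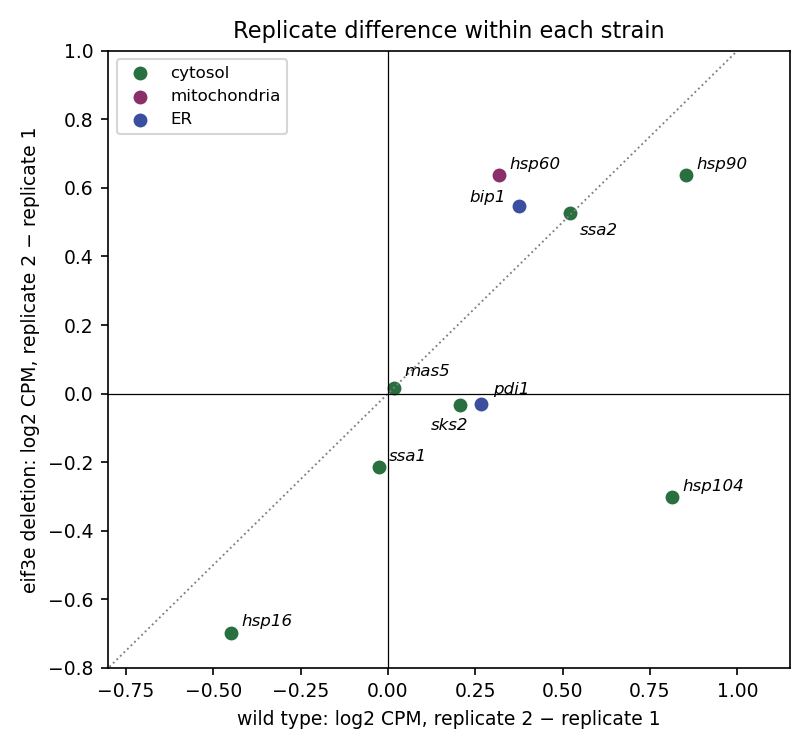
Difference between replicate 2 and replicate 1 in log2 CPM for each chaperone gene, in wild type (horizontal axis) and in the eif3e deletion (vertical axis), coloured by compartment; the dotted line marks equal differences. hsp90, ssa2, bip1 and hsp60 lie at the upper right, hsp16 at the lower left, and hsp104 at 0.81 and −0.30.

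Beyond the 10 members, 40 further genes of the same machinery were listed and 39 were matched by symbol and tested; lhs1 was not matched. edgeR called 0 of 39 at an adjusted p under 0.05, and at an unadjusted p under 0.05 it gave 2 higher and 3 lower, where 4.8% of all features were higher and 5.31% lower. Both deletion libraries lay above the wild type for 8 of the 39 and below for 13, where all features show 41.5% outside the wild-type range in 1 direction or the other. Their median log2 change was −0.06. hsf1, the gene of the heat shock factor, held 5.018 and 5.19 CPM in wild type against 4.79 and 4.71 CPM in the deletion, with a log2 change of −0.10 and an edgeR adjusted p of 0.945. It is 1 of 22 among these 39 genes that overlap an opposite-strand feature, and 8 overlap one on the same strand, which leaves their levels uncertain to that extent.

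Of the 6 Hsp90 partner genes 2 were positive and 4 negative, with a median of −0.05 and 0 called. cns1, whose product in budding yeast is a partner of both Hsp70 and Hsp90, measured 9.47 and 9.67 CPM in wild type against 4.82 and 3.70 CPM in the deletion. Both deletion values lay below both wild-type values, and the log2 change was −1.15 with a 95% interval of −1.90 to −0.40, an unadjusted p of 0.00825 and an edgeR adjusted p of 0.331. This was the lowest adjusted p among the 39. cdc37, encoding the kinase-specific partner of Hsp90, had a log2 change of −0.75, git7 one of 0.60 and wos2, encoding the p23 co-chaperone and the most abundant of the list, one of 0.03.

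In the list of other Hsp70 partners and small heat shock genes, 4 of 9 were positive and 5 negative, with a median of −0.04 and 0 called. pss1, encoding the Hsp110 exchange factor of Hsp70, measured 17.0 and 26.5 CPM in wild type against 41.6 and 31.4 CPM in the deletion, a log2 change of 0.76 with an unadjusted p of 0.0422 and an edgeR adjusted p of 0.476. Its deletion values lay above both wild-type values, in the order also seen for hsp104, with wild-type replicate 1 lowest and deletion replicate 1 highest. hsp9, encoding a further heat shock protein, measured 26.8 and 23.5 CPM in wild type against 18.0 and 14.5 CPM in the deletion, a log2 change of −0.63 with an unadjusted p of 0.0439 and an edgeR adjusted p of 0.482. hsp20 stood at −0.49, bag102, encoding a BAG-domain partner of Hsp70, at 0.65, and ssz1, encoding the Hsp70 of the ribosome-associated complex and the most abundant of the list, at −0.21.

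The 8 subunit genes of TRiC, the cytosolic chaperonin of actin and tubulin, had a median of −0.14 with 3 positive, 5 negative and 0 called. cct2 and cct3 had log2 changes of 0.42 and 0.35, and cct6 and cct4 of −0.57 and −0.51. cct2 was also the most abundant of the 8 by mean RPKM over the 4 libraries, although in wild type cct7 stood slightly higher, at 152.6 against 150.6. The deletion libraries lay above the wild-type ones for 2 of the 8 genes and below for 4, against 20.1% and 21.4% of all features.

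Of the other mitochondrial chaperone genes 2 were positive and 3 negative, with a median of −0.06 and 0 called. hsp10, encoding the lid of the Hsp60 barrel and the most abundant of the list by mean RPKM over the 4 libraries, measured 44.1 and 38.4 CPM in wild type against 36.1 and 43.0 CPM in the deletion, a log2 change of −0.06. In the deletion alone hsp78 had the higher mean RPKM, at 45.8 against 42.4 for hsp10. ssc1, encoding the mitochondrial Hsp70, and hsp78, encoding the mitochondrial disaggregase, had log2 changes of 0.13 and 0.12. mdj1, encoding a J-domain protein, had one of −0.59, and mge1, encoding the exchange factor, one of −0.10. All edgeR adjusted p were 0.658 or above.

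Of the other ER genes 6 were positive and 4 negative, with a median of 0.11 and 0 called. ero12, encoding an oxidase that passes disulfides to protein disulfide isomerase, measured 23.8 and 24.8 CPM in wild type against 14.97 and 14.6 CPM in the deletion. Its replicates lay close together in both strains, with a log2 change of −0.72, a 95% interval of −1.28 to −0.15, an unadjusted p of 0.0203 and an edgeR adjusted p of 0.398. pdi5 measured 1.69 and 1.18 CPM in wild type against 4.25 and 3.37 CPM in the deletion, a log2 change of 1.38 with an unadjusted p of 0.0271 and an edgeR adjusted p of 0.419. pdi3 had a log2 change of 0.41, scj1, encoding a J-domain partner of BiP, one of −0.36, and pdi2, the most abundant of the list by mean RPKM, one of 0.08.

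**Figure D4:**
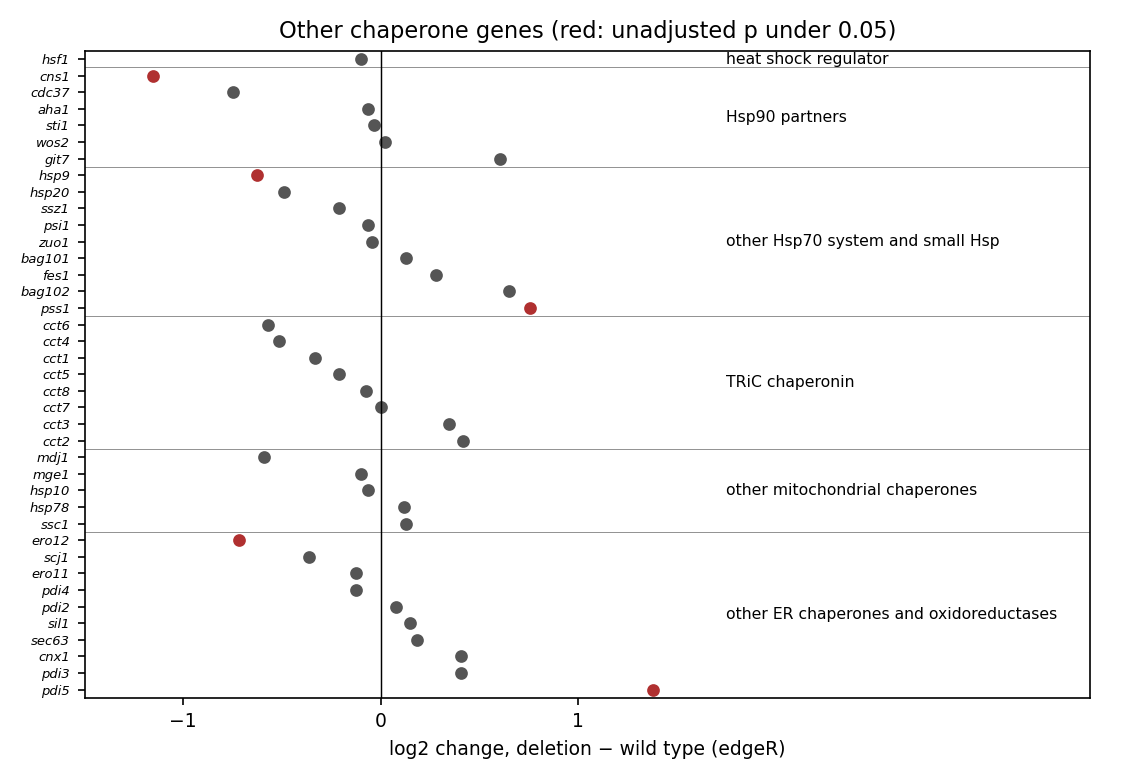
Log2 change (deletion minus wild type, horizontal axis, edgeR) of 39 other chaperone genes in 6 lists. Red points have an unadjusted p under 0.05 (cns1, hsp9, pss1, ero12 and pdi5), and none has an adjusted p under 0.05.

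The protein-coding features whose centred log2(CPM + 1) over the 4 libraries lay nearest to that of hsp104 were sdh8, rpn12 and SPAC13C5.05c, at root mean square distances of 0.06, 0.07 and 0.07. rpn12 measured 39.97 and 63.0 CPM in wild type against 93.9 and 69.2 CPM in the deletion. With 4 libraries and 4785 nuclear protein-coding features searched, such nearness is a description.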

How the data were processed

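Total RNA was depleted of rRNA, fragmented enzymatically and read on the SOLiD 4 platform, per the labels. TopHat 1.4.1, Bowtie 1.1.0, Partek 6.0 and SAMtools are listed, without roles, per the submitters' processing notes. Genome build and strand setting: not given in the sources used here. Positions are the table's, the end being its stop value less 1. Of 6636 features matched to RefSeq (ASM294v3), 99.3% share a start or an end with it, and 153 of 153 tRNAs share both. Sequences and symbols are RefSeq's.

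The authors deposited estimated counts of reads per feature, not normalized, of which 89.6% to 91.9% were whole within 1e-06. The deposited RPKM, junction RPKM and incompatible RPKM are scaled by transcript length and library reads, per the file headers. The deposited transcript length is in bases. The table also holds the authors' chi-square score and p-value per feature. There were 0 value columns not tied to a library.

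Estimated counts were rounded and tested with edgeR 4.0.16 (R 4.3.3): TMM, filterByExpr, quasi-likelihood F test, strain as the only term, two-sided, Benjamini-Hochberg adjusted p threshold 0.05 over 5915 features. The standard error is the log2 change divided by the root of F. Alternatives were RLE normalization, no filter, DESeq2 1.42.0, limma-voom and limma on log2(RPKM + 1) (limma 3.58.1), removal of nuclear rRNA, a replicate block, and leaving out each library. The edgeR step was tested on simulated data. Python 3.11.15 with Biopython 1.88 served for sequences. Coding sequences were aligned globally.

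The members and lists were chosen with earlier results of these data known. Named beside the members are int6, hsf1 and, from each list, the 2 highest and 2 lowest log2 changes and the most abundant gene by RPKM, plus the 3 protein-coding features nearest to hsp104.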

Additional observations from a re-analysis of the deposited data

How the results depend on the processing

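No chaperone member was called under any of the 11 alternatives, leaving out each library included, and the lowest adjusted p of a member in any of them was 0.321. Over all features, the 1 call rose to 20 (15 higher, 5 lower) with no filter, to 90 with DESeq2 (49 and 41), to 46 with limma on log2(RPKM + 1) (11 and 35) and to 193 with the replicate block (88 and 105). With a library left out it ran from 0 to 242 (0 to 70 higher, 0 to 172 lower). The deviations of same-numbered libraries correlated at 0.238. Sample titles and column headers give the same-numbered libraries of both strains a shared code, but the labels do not say what it marks. The cause of these shifts was not tested.

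Signs of small changes turned. limma on log2(RPKM + 1) gave −0.027 for hsp90, −0.10 for ssa2, −0.069 for pdi1, −0.16 for wos2, −0.055 for hsp78, −0.043 for ssc1 and −0.086 for pdi2, where the median of all features stood at −0.12. limma-voom gave −0.024 for wos2 and 0.013 for sti1. With libraries left out in turn, log2 changes ran from −0.25 to 0.61 for hsp90, −0.20 to 0.022 for ssa1, −0.20 to 0.36 for ssa2, −0.11 to 0.10 for sks2, −0.48 to 0.16 for hsp60, −0.04 to 0.23 for pdi1, −0.67 to 0.66 for sti1, −0.20 to 0.23 for wos2, −0.47 to 0.10 for ssz1, −0.38 to 0.16 for mge1, −0.19 to 0.062 for hsp10 and −0.11 to 0.29 for pdi2. The signs of hsp104, mas5, hsp16 and bip1 held throughout. Such a fit assumes that the lone library varies like the other strain. Summed log2 ratios then ran from −0.18 to 0.41 for the cytosol, −0.49 to 0.15 for the mitochondrial gene and −0.46 to −0.07 for the ER. int6 stood at −6.23 (edgeR adjusted p = 0.111), and its adjusted p over the alternatives ran from 1.21e-08 to 0.298. The 95% intervals of the members reach from 0.57 (sks2) to 1.49 (hsp104) away from 0 on the log2 scale. Changes inside an interval remain compatible with the data of that gene, but an interval is not a limit of detection. The intervals of int6 (−8.42 to −4.03) and cns1 (−1.90 to −0.40) exclude 0, as do those of pss1, hsp9, ero12 and pdi5. edgeR called none of these genes, since the intervals are not adjusted for the number of features tested. At an unadjusted edgeR p under 0.05, 4.8% of all features were higher and 5.31% lower.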
